A study of Homo sapiens with 6 samples.

Results

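The 36 genes described here encode the protein folding and quality control machinery of the endoplasmic reticulum (ER) together with the ATF6 and IRE1 arms of its stress response. They comprise 10 chaperones and chaperone helpers, 9 disulfide enzymes and oxidases, 3 small stress factors, 4 sensors or transcription factors and 10 components of ER-associated degradation (ERAD). They were chosen by gene symbol, with no threshold on their values, and all 36 were found among the 33496 genes of the deposited tables. The third sensor arm, PERK with its effector ATF4, is not part of the set and is given only for comparison.

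RNA-seq was performed on ARPE-19, an established human retinal pigment epithelium (RPE) line of wild-type genotype, to examine how vitamin K1 (VK1) alters gene expression in RPE cells damaged by ferroptosis. All 6 libraries came from cells given 5 μM erastin for 24 h. Erastin blocks cystine uptake through system xc- and thereby brings on ferroptosis, an iron-dependent form of cell death driven by lipid peroxidation. In the 3 Era libraries erastin was given alone, and in the 3 Era+VK libraries 10 μM VK1 was added 1 h before erastin. VK1 was dissolved in ethyl alcohol and erastin in DMSO, and whether the Era cultures received ethyl alcohol is not given in the sources used here. Untreated cells and cells with VK1 alone were not analysed here. The labels do not say whether the replicates were separate cultures, so the p-values measure only the spread between these libraries, which may be technical.

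Secretory and membrane proteins fold in the ER with the help of Ca2+-binding chaperones and disulfide isomerases, and proteins that fail to fold are moved back to the cytosol and degraded by ERAD. When unfolded proteins accumulate, ATF6 is cut in the Golgi to release a transcription factor, and IRE1 splices the XBP1 mRNA so that it encodes an active factor. Both factors act on chaperone and ERAD genes, whereas PERK slows translation and favours the synthesis of ATF4. RPE cells depend on this machinery, as they secrete growth factors and extracellular matrix toward the choroid.

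Expression was given as FPKM, a count of sequenced fragments scaled to the length of the transcript and to all mapped fragments of the library, a unit that allows levels of different genes to be set side by side but holds no read depth. Between 24143 and 24601 genes were above 0 in a library, and mitochondrially encoded genes made up 16% to 18.5% of the summed FPKM. Of 12 RPE markers found, 5 were at 1 FPKM or more in every library, among them MITF, OTX2, KRT8 and KRT18. The visual cycle enzyme RPE65 was at 0.02 FPKM or less, and RLBP1, LRAT, TYR, TYRP1 and SERPINF1 were under 1 FPKM in every library. BEST1, another RPE marker, varied within both groups, at 2.65, 0.65 and 56.98 FPKM in Era and 36.5, 0.6 and 4.8 FPKM in Era+VK, so that Era replicate 3 and Era+VK replicate 1 were high in it. Era+VK replicates 2 and 3 stood apart from the other libraries by erythroid transcripts. The 17 erythroid markers summed to 247 and 241 FPKM there, of which the fetal globin gene HBG2 gave 101.8 and 100.3 FPKM. They summed to 6.07 to 6.93 FPKM in the Era libraries and 6.67 FPKM in Era+VK replicate 1. Most of these lower sums was EPOR, which lay at 5.48 to 7.12 FPKM over all 6 libraries. HBG2 was at 0.05 FPKM or less in Era and in Era+VK replicate 1. The adult globin gene HBB stayed at 0.04 FPKM or less in all 6 libraries. Blood and lymphoid markers summed to at most 0.43 FPKM and fibroblast and endothelial markers to at most 0.56 FPKM. Values for Era+VK replicate 1 alone are therefore given beside the counts below, and the part of the erythroid transcripts in any difference was not tested.

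The promoters of 8 of these genes are shown first, since the elements known to be bound by the factors of the stress response can be read in them. The ER stress response element (ERSE), which reads CCAAT, any 9 bases and CCACG, is bound by NF-Y together with ATF6 or XBP1, and a shorter form (ERSE-II) reads ATTGG, any 1 base and CCACG. Both were searched on either strand of the RefSeq promoter windows (GRCh38.p14), which reach from 250 bases before to 50 bases after the start site. Promoters were found for 33 of the 36 genes. An ERSE was present in 8 of them (CALR, CANX, CRELD2, ERO1B, HSP90B1, HSPA5, PDIA6 and XBP1), or 24.2%, and in 27 of 35116 windows over all genes, or 0.0769%. An ERSE-II was present in 3 of them (HERPUD1, HYOU1 and SDF2L1), against 19 of 35116 windows (0.0541%). By window, 10 of the 41 windows of these 33 genes held an ERSE (24.4%) and 3 an ERSE-II (7.32%). These windows count among the 27 and the 19, and overlapping windows of CANX share the same ERSE. Since these elements were first described in promoters of ER chaperones, the excess is not independent of how the genes were chosen. Below, the 250 bases before the start are written 5′ to 3′ on the strand of the gene, with the ERSE or ERSE-II in capitals. Promoters of CANX, ERO1B and PDIA6, which also held an ERSE, are not shown. The first 6 genes had higher mean levels in Era+VK, though SDF2L1 and HSP90B1 (log2 fold change 0.02) overlapped between groups, and the last 2 had lower ones. They lie at chr19:12938359-12938608 (plus strand) for CALR, chr22:49918384-49918633 (plus strand) for CRELD2, chr11:119057206-119057455 (minus strand) for HYOU1, chr22:21642052-21642301 (plus strand) for SDF2L1, chr9:125241344-125241593 (minus strand) for HSPA5, chr12:103930160-103930409 (plus strand) for HSP90B1, chr22:28800570-28800819 (minus strand) for XBP1 and chr16:56931892-56932141 (plus strand) for HERPUD1.
CALR: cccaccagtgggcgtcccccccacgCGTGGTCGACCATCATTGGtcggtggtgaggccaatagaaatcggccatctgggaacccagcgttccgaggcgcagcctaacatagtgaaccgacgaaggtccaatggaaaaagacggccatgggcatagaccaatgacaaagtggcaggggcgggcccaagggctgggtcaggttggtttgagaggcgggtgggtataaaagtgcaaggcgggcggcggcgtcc
CRELD2: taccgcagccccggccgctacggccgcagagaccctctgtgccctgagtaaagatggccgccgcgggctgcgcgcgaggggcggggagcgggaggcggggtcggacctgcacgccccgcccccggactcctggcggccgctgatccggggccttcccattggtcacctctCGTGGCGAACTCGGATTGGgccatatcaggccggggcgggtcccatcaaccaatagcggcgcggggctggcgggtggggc
HYOU1: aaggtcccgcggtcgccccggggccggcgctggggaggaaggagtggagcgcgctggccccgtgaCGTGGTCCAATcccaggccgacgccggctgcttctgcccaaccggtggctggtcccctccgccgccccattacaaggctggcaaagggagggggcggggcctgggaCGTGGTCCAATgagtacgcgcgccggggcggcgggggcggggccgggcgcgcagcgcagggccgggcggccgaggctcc
SDF2L1: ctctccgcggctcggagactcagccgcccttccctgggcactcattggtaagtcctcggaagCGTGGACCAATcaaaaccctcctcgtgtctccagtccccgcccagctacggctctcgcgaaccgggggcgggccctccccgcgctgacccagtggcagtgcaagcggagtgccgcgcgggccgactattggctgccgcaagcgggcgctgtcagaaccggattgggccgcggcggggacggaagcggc
HSPA5: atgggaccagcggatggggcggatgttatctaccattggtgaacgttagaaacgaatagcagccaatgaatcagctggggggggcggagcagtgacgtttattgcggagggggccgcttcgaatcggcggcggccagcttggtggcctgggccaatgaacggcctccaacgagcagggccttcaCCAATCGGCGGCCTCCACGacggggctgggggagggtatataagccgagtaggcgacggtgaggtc
HSP90B1: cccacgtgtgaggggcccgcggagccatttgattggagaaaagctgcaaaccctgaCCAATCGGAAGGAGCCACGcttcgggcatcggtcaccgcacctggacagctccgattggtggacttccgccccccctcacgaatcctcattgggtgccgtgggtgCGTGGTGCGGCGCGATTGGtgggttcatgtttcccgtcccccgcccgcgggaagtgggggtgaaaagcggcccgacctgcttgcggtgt
XBP1: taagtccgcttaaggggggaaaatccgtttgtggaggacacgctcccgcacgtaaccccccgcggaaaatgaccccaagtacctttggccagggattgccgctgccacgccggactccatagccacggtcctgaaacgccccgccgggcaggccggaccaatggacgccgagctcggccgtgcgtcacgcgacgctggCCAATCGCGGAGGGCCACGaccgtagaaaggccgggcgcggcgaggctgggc
HERPUD1: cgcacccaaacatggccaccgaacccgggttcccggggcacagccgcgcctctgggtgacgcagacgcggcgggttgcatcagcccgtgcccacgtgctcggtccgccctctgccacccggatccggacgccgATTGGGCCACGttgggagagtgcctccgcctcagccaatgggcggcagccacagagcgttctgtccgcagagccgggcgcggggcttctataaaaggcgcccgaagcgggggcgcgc

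The capitals of CALR, CRELD2 and SDF2L1 read the element on the opposite strand, and those of HSPA5, XBP1 and HERPUD1 on the strand of the gene. HSP90B1 carried 2 ERSE matches, one on each strand, whose first bases lay 194 and 89 bases before the start. HYOU1 carried 2 ERSE-II matches, 185 and 79 bases before it, and the first overlapped a match to TGACGTGG, the XBP1-binding UPRE, which began at 188. Besides HYOU1, TXNDC5 and DNAJC10 held a UPRE (0.729% of all windows). HERPUD1 was the only one of the 33 genes with a match to TGATGNAA, the element bound by ATF4 with C/EBP factors, which began 176 bases before the start and occurred in 3.62% of all windows. A match is a description of the sequence and not evidence of binding in these cells.

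The 36 genes covered a wide range of levels, from a mean of 0.383 FPKM over the 6 libraries to 420.2 FPKM. Of them, 7 had a mean of at least 50 FPKM and 22 a mean of at least 10 FPKM, and the median was 13.9 FPKM against 6.11 FPKM for all genes tested. Calreticulin (CALR) was the most abundant, at rank 39 of the 11981 genes tested. ERO1B, ERN1 and DERL3 lay under the mean of 1 FPKM required for testing, which left 33. The plot of levels by library shows that the chaperones and disulfide enzymes held the upper end and that, for most genes, the 6 libraries lay close together.

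**Figure D1:**
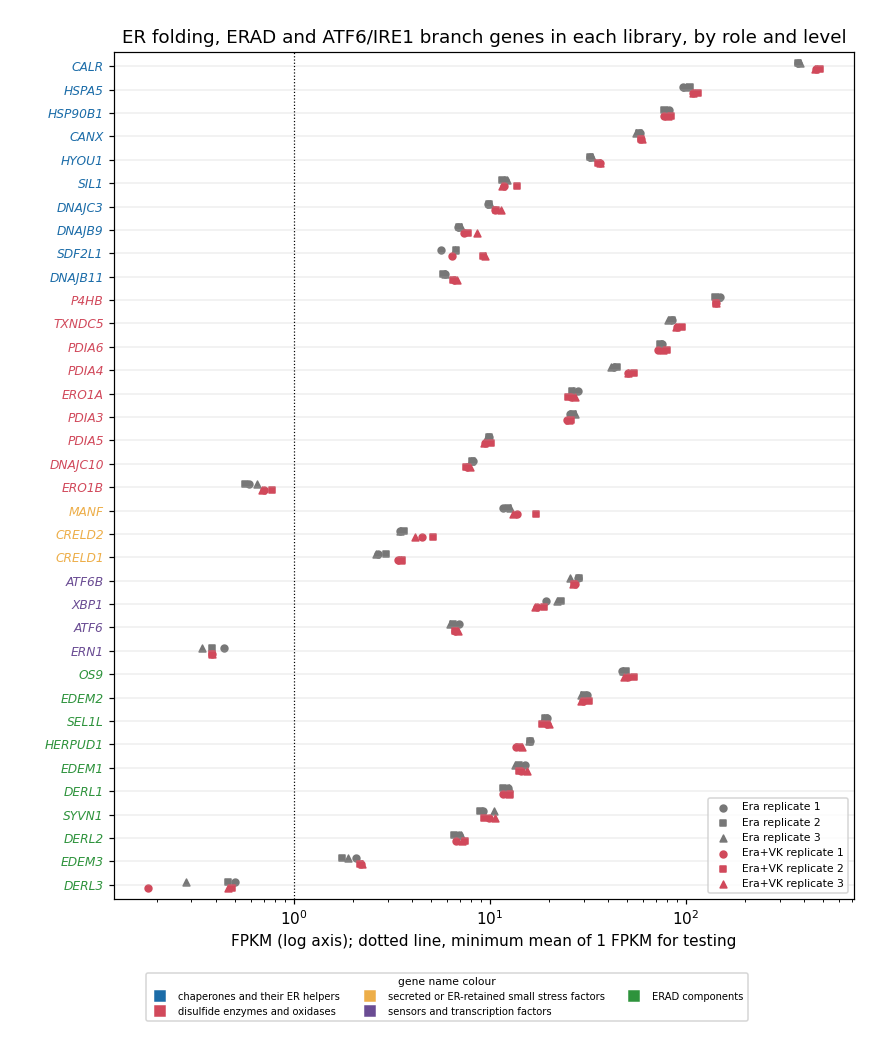
FPKM of the 36 genes in each library (log axis, 1 row per gene, grouped by role through the colour of the name; grey, Era; red, Era+VK; marker shape, replicate). CALR lies highest at 371 to 482 FPKM, and ERO1B, ERN1 and DERL3 lie left of the dotted line at 1 FPKM.

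Among the chaperones, CALR, the Ca2+-buffering lectin chaperone of the ER lumen, rose with VK1. CALR (ENSG00000179218, chr19:12938578-12944489, plus strand of GRCh38) was at 371, 373 and 380.4 FPKM in Era replicates 1, 2 and 3 and at 462, 482 and 453 FPKM in Era+VK replicates 1, 2 and 3. All 3 Era+VK libraries were above every Era library. The mean went from 375 ± 4.99 to 466 ± 15.1 FPKM (SD, n = 3 per group), a ratio of 1.24. On the log2(FPKM + 1) scale used for testing, it differed by 0.31 (SE 0.05, 95% interval 0.20 to 0.42), and limma gave an adjusted p of 0.0386. It was the only 1 of the 33 tested genes to pass, or 3.03%, where 0.618% of all genes tested passed in either direction and 0.134% passed as higher. CALR in Era+VK replicate 1 was above every Era library as well, but in limma its adjusted p was 0.122 with that replicate alone and 0.136, 0.148 and 0.193 without Era replicates 3, 1 and 2. Without Era+VK replicates 1 and 3 it was 0.102 and 0.0874, with no filter on low genes 0.231 and with libraries centred on their median 0.0558. In bulk RNA a higher level per cell and a larger share of cells with a high level cannot be told apart.

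The membrane-bound lectin chaperone CANX, which works in the same cycle as CALR, stood at 58.2, 57.8 and 55.8 FPKM in Era and 58.7, 58.9 and 59.5 FPKM in Era+VK. These groups did not overlap either, yet the difference was 0.04 on the log2 scale and far from the threshold (adjusted p = 0.624 in limma). The CALR to CANX ratio was 6.55 ± 0.24 in Era and 7.89 ± 0.286 in Era+VK (SD, n = 3 per group). This was one of 4 ratios compared, all chosen after the values were seen, and an exact two-sided permutation test gave p = 0.1, the smallest possible with 3 against 3, or 0.2 after adjustment over the 4.

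HSPA5 (BiP), the Hsp70 of the ER lumen and the usual marker of ER stress, was at 96.6, 104.4 and 100.1 FPKM in Era and 108.2, 114.9 and 108.4 FPKM in Era+VK. The Era+VK libraries all lay above the Era libraries, by a ratio of the means of 1.10. The difference of 0.14 on the log2 scale (SE 0.05, 95% interval 0.03 to 0.25) did not pass in limma (adjusted p = 0.234). HSP90B1, the Hsp90 of the ER, overlapped between groups, with 81.4, 77.4 and 79.8 FPKM in Era and 77.4, 83.7 and 81.1 FPKM in Era+VK (log2 fold change 0.02, 95% interval -0.09 to 0.13).

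Several partners of HSPA5 were higher in every Era+VK library, by small amounts. HYOU1, a large Hsp70-like protein that exchanges nucleotide on HSPA5, was at 32.3, 32.3 and 32.95 FPKM in Era and 36.4, 35.5 and 36.5 FPKM in Era+VK, with no overlap (log2 fold change 0.15, 95% interval 0.06 to 0.24, adjusted p = 0.145 in limma). Of the J-domain cochaperones that stimulate HSPA5, DNAJB11 was at 5.91, 5.74 and 5.91 FPKM in Era and 6.55, 6.5 and 6.77 FPKM in Era+VK. DNAJC3, which also inhibits PERK, went from 9.75, 9.86 and 9.95 FPKM to 10.7, 10.8 and 11.4 FPKM, and DNAJB9, a repressor of IRE1, from 6.89, 6.95 and 7.12 FPKM to 7.35, 7.69 and 8.54 FPKM. In each of these J-domain genes the groups did not overlap, and their log2 fold changes of 0.15, 0.14 and 0.15 had adjusted p-values between 0.188 and 0.289 in limma. That of DNAJB9 was 0.09 without Era+VK replicate 3 and 0.06 with Era+VK replicate 1 alone.

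SDF2L1, a partner of DNAJB11, had the largest fold change of the set, 0.33 (SE 0.13), but also the widest spread. Its libraries were at 5.59, 6.74 and 6.60 FPKM in Era and 6.36, 9.16 and 9.38 FPKM in Era+VK, so Era+VK replicate 1 lay within the Era range while replicates 2 and 3, which carried the erythroid transcripts, lay above it (adjusted p = 0.291 in limma). With Era+VK replicate 1 alone the difference was 0.01. SIL1, the other nucleotide exchange factor of HSPA5, was at 11.96, 11.6 and 12.2 FPKM in Era and 11.8, 13.7 and 11.5 FPKM in Era+VK, and its groups overlapped.

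All 10 chaperones and helpers had a higher mean in Era+VK, as did 63.3% of all genes tested. Of the 10, 7 lay higher without overlap, where 15.1% of all genes tested were higher without overlap. The median log2 fold change of the 10 was 0.14 against 0.03 for all genes tested. Those with a higher mean were 9, without HSP90B1, when libraries were centred on their median. They were 8 without Era+VK replicate 2 and 8 with Era+VK replicate 1 alone. Measured against the Era mean, the median over these 10 genes was 0.08, 0.13 and 0.17 in Era+VK replicates 1, 2 and 3, and between -0.01 and 0.02 in the Era libraries. In Era+VK replicate 1, the library without the erythroid signal, 7 of the 10 (CALR, HSPA5, CANX, HYOU1, DNAJB9, DNAJB11 and DNAJC3) were above every Era library and HSP90B1 was below. Of all genes tested, 38.1% were above every Era library in that replicate and 25.5% were below.

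**Figure D2:**
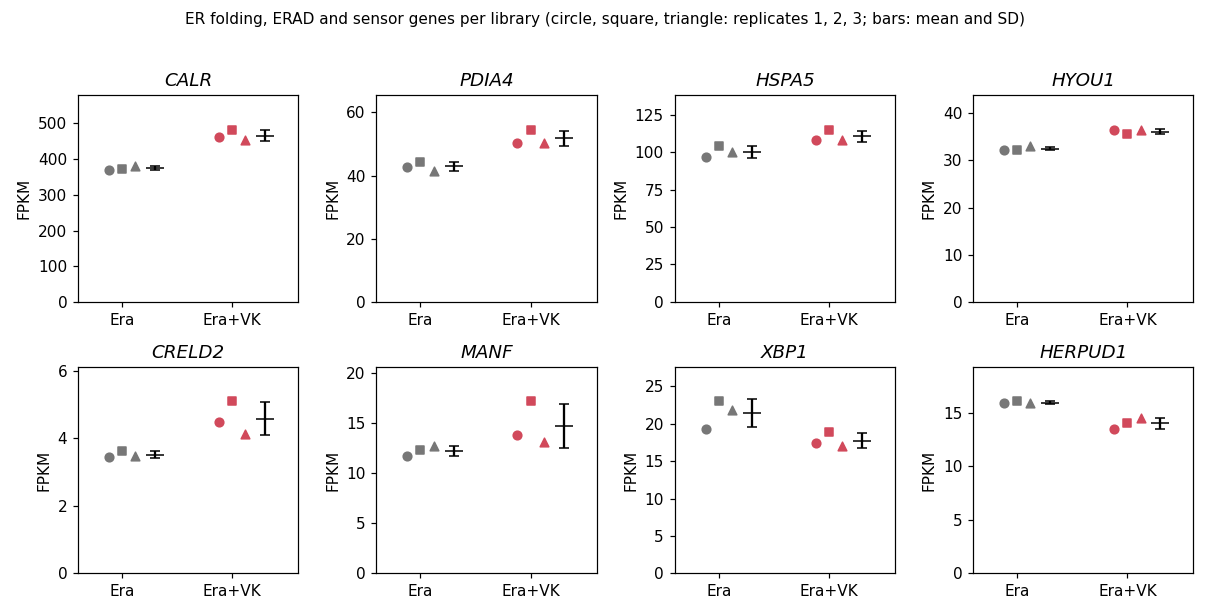
FPKM of 8 of the genes in each library (linear axes from 0; points, libraries; bars, mean and SD of 3). CALR, PDIA4, HSPA5, HYOU1, CRELD2 and MANF lie higher in all 3 Era+VK libraries than in all 3 Era libraries, and XBP1 and HERPUD1 lie lower, but only CALR passed the adjusted threshold.

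The disulfide enzymes differed among themselves in direction, and none passed the test. PDIA4 (ENSG00000155660, chr7:149003062-149028641, minus strand), a protein disulfide isomerase found in complex with HSPA5, was at 42.8, 44.3 and 41.6 FPKM in Era and 50.5, 54.5 and 50.4 FPKM in Era+VK. Its groups were well apart, with means of 42.9 ± 1.36 and 51.8 ± 2.34 FPKM (SD, n = 3 per group). The log2 fold change of 0.27 (SE 0.05, 95% interval 0.15 to 0.38) missed the threshold (limma adjusted p = 0.0664), and in 4 of the 15 alternative settings it passed. TXNDC5, a thioredoxin-domain isomerase, was at 85.2, 84.8 and 80.5 FPKM in Era and 90.1, 95.9 and 89.2 FPKM in Era+VK, again without overlap (difference 0.13 on the log2 scale; limma adjusted p = 0.239).

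The other isomerases lay level or slightly lower. P4HB, the archetypal isomerase and the most abundant gene of the set after CALR, was at 149.1, 140.9 and 145.0 FPKM in Era and 142.1, 142.4 and 142.3 FPKM in Era+VK. PDIA3, which acts on glycoproteins held by CALR and CANX, was at 25.7, 26.4 and 27.0 FPKM in Era and 24.6, 26.0 and 25.3 FPKM in Era+VK. PDIA6 (72.3 to 79.5 FPKM over all 6 libraries) and PDIA5 (9.36 to 10.2 FPKM) also overlapped between groups, and the 95% intervals of all 4 lay within -0.16 and 0.13 on the log2 scale. The processed copies PDIA3P1 and PDIA3P2 were listed at means of 3.88 and 2.56 FPKM and may share reads with PDIA3.

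DNAJC10, a J-domain reductase that opens disulfides ahead of degradation, was lower in every Era+VK library, with 8.20, 8.09 and 8.0 FPKM in Era and 7.60, 7.53 and 7.95 FPKM in Era+VK (difference -0.07 on the log2 scale; limma adjusted p = 0.505). ERO1A, the oxidase that recharges the isomerases, was at 28.1, 26.3 and 26.6 FPKM in Era and 26.0, 24.9 and 27.3 FPKM in Era+VK, with overlap. Its relative ERO1B was scarce, at 0.59, 0.56 and 0.65 FPKM in Era and 0.70, 0.77 and 0.69 FPKM in Era+VK, and it was not tested. ERO1B overlaps GPR137B on the opposite strand (6.5 FPKM), and whether counting used strand is not given in the sources used here.

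Of the 8 disulfide genes tested, 3 had a higher and 5 a lower mean, with a median of -0.03. In Era+VK replicate 1 alone, 2 were above every Era library (PDIA4 and TXNDC5) and 5 were below (PDIA3, PDIA5, PDIA6, DNAJC10 and ERO1A), next to 38.1% above and 25.5% below over all genes tested. The PDIA4 to PDIA3 ratio was 1.63 ± 0.08 in Era and 2.05 ± 0.05 in Era+VK (SD, n = 3 per group; exact two-sided permutation test, p = 0.1, or 0.2 adjusted over the 4 ratios).

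The 3 small stress factors were all higher in Era+VK without overlap, as were 15.1% of all genes tested. CRELD2 (chr22:49918167-49927540), a secreted protein with ERSE-driven expression, was at 3.46, 3.63 and 3.48 FPKM in Era and 4.50, 5.10 and 4.14 FPKM in Era+VK, which differ by 0.30 on the log2 scale (SE 0.07, 95% interval 0.14 to 0.46; limma adjusted p = 0.118). CRELD1, its membrane-bound relative, was at 2.68, 2.95 and 2.62 FPKM in Era and 3.41, 3.55 and 3.51 FPKM in Era+VK (difference 0.26 on the log2 scale; limma adjusted p = 0.0996). MANF, an ER-resident factor that is secreted under stress and binds HSPA5, was at 11.7, 12.3 and 12.7 FPKM in Era and 13.8, 17.2 and 13.1 FPKM in Era+VK (difference 0.24 on the log2 scale; limma adjusted p = 0.285). Era+VK replicate 2 was the highest library in each of the 3 genes. Without that library the difference of MANF was 0.13. In Era+VK replicate 1 alone, all 3 were above every Era library, as were 38.1% of all genes tested. CRELD2 overlaps ALG12 on the opposite strand (6.08 FPKM), which exceeds the level of CRELD2 itself.

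No sensor or transcription factor passed the test. ATF6 was at 6.92, 6.51 and 6.22 FPKM in Era and 6.59, 6.60 and 6.85 FPKM in Era+VK, and its paralog ATF6B at 28.0, 28.4 and 25.6 FPKM in Era and 27.2, 26.8 and 26.6 FPKM in Era+VK. Both overlapped between groups, with log2 fold changes of 0.03 and -0.02. ERN1, which encodes IRE1, was listed at 0.44, 0.38 and 0.34 FPKM in Era and at 0.38 FPKM in each Era+VK library, under the limit for testing.

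XBP1 (ENSG00000100219, chr22:28794555-28800597, minus strand), whose mRNA is the substrate of IRE1, was lower with VK1. It was at 19.3, 23.0 and 21.9 FPKM in Era and 17.4, 18.9 and 17.0 FPKM in Era+VK, so the groups did not overlap and the ratio of the means was 0.83. The log2 fold change was -0.25 (SE 0.07, 95% interval -0.42 to -0.09) and did not pass after adjustment (adjusted p = 0.166 in limma). Values per gene do not separate spliced from unspliced XBP1 mRNA, so they hold no measure of IRE1 activity.

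Of the ERAD genes, HERPUD1 stood out by its direction. HERPUD1 (ENSG00000051108, chr16:56932048-56944863, plus strand), a membrane protein that gathers the degradation complex, was at 15.9, 16.1 and 15.9 FPKM in Era and 13.5, 14.1 and 14.5 FPKM in Era+VK. The 3 Era libraries were nearly equal, and every Era+VK library lay below them. The log2 difference was -0.17 (SE 0.04, 95% interval -0.27 to -0.07), with a limma adjusted p of 0.139.

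The core of the retrotranslocation complex lay level. The ubiquitin ligase SYVN1 was at 9.23, 8.84 and 10.5 FPKM in Era and 9.89, 9.27 and 10.6 FPKM in Era+VK, and its scaffold SEL1L at 19.5, 19.1 and 18.7 FPKM in Era and 19.6, 18.3 and 20.04 FPKM in Era+VK. The channel proteins DERL1 (11.6 to 12.7 FPKM over all 6 libraries) and DERL2 (6.52 to 7.41 FPKM) overlapped between groups, and DERL3 was under 1 FPKM, with 0.50, 0.46 and 0.28 FPKM in Era and 0.18, 0.48 and 0.46 FPKM in Era+VK. SYVN1 shares its locus with FAU (82.6 FPKM) and MRPL49 (26.1 FPKM), so its value may hold reads of these more abundant neighbours.

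Among the lectins and mannosidases that select glycoproteins for degradation, EDEM3 was higher in every Era+VK library, with 2.08, 1.76 and 1.88 FPKM in Era and 2.20, 2.16 and 2.23 FPKM in Era+VK (difference 0.14 on the log2 scale; limma adjusted p = 0.345). OS9 was at 47.2, 49.2 and 47.9 FPKM in Era and 50.4, 54.3 and 48.0 FPKM in Era+VK. Its groups overlapped, as Era+VK replicate 3 lay below Era replicate 2, and its difference of 0.08 on the log2 scale was 0.03 without Era+VK replicate 2 and 0.12 without replicate 3. EDEM1 (13.4 to 15.4 FPKM) and EDEM2 (28.97 to 31.8 FPKM) overlapped between groups. Over the 9 ERAD genes tested, 8 had a higher mean, and the median was 0.04 against 0.03 for all genes tested. When libraries were centred on their median, 3 had a higher mean. The medians were then -0.0039 for the 9 ERAD genes and -0.0093 for all genes tested.

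**Figure D3:**
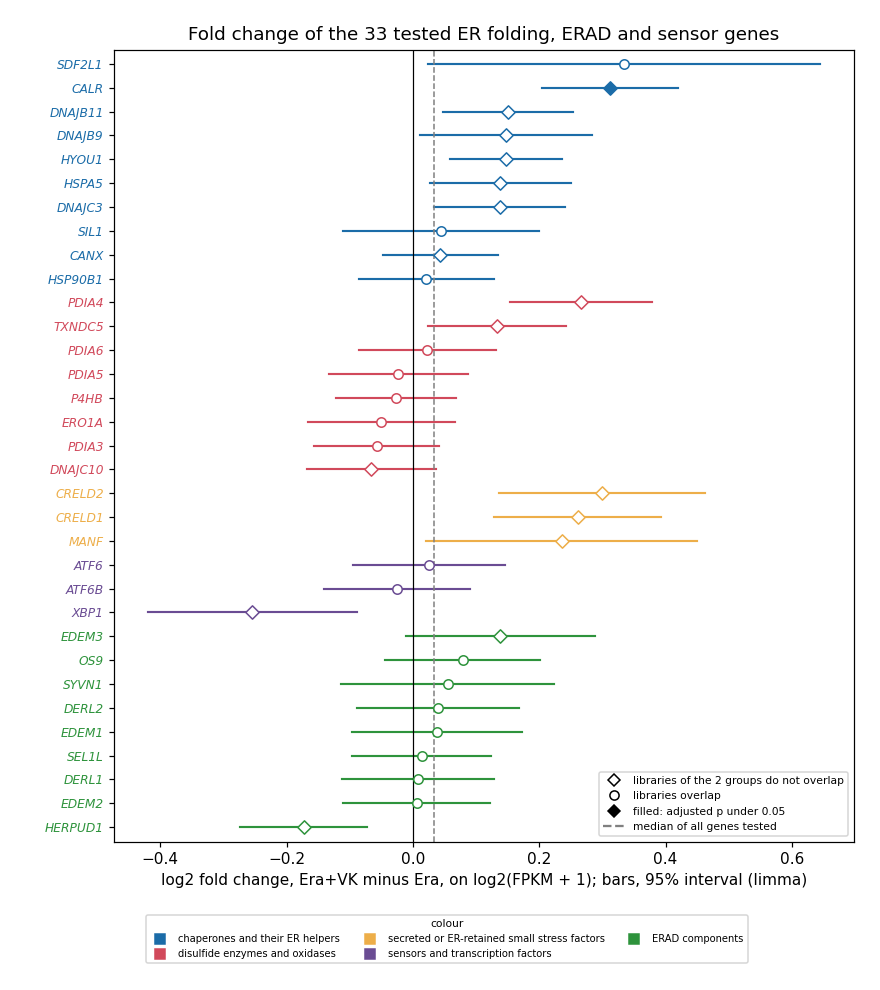
Log2 fold change of the 33 tested genes, Era+VK minus Era on the log2(FPKM + 1) scale, with the 95% interval from limma (diamonds, libraries of both groups do not overlap; circles, they overlap; filled, adjusted p under 0.05; dashed line, median of all genes tested). The filled point is CALR at 0.31, and the diamonds left of 0 are DNAJC10, XBP1 and HERPUD1.

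Over the whole set, 25 of the 33 tested genes had a higher mean in Era+VK (75.8%, against 63.3% of all genes tested). For 8 the mean was lower, next to 36.7% of all genes tested. Libraries of both groups did not overlap for 13 genes that were higher, or 39.4%, where 15.1% of all genes tested did so in that direction, and for 3 that were lower, or 9.09%, against 7.04%. The remaining 17 overlapped. The median log2 fold change was 0.04 for the set and 0.03 for all genes tested. At the adjusted threshold in limma, 1 of the 33 was called higher (CALR, 3.03%, against 0.134% of all genes tested). Called lower were 0 of the 33, against 0.484% of all genes tested. At an unadjusted p under 0.05, 12 were higher (36.4%, against 10.4% of all genes tested) and 2 were lower (6.06%, against 5.42%). In Era+VK replicate 1 alone, 15 of the 33 (45.5%) were above every Era library and 9 (27.3%) were below, next to the 38.1% and 25.5% of all genes. When libraries were centred on their median, 17 of the 33 had a higher mean. Centring took the median of the set to 0.0016 and that of all genes tested to -0.0093. The share of all genes with a higher mean after centring is not given, and the 63.3% does not apply to it.

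The medians per library are given by role, and differences between the roles were not tested. Those of the chaperones, the small stress factors and the ERAD genes lay above 0 in all 3 Era+VK libraries, the last at 0.02, 0.05 and 0.05. Those of the 3 sensors tested lay below 0 in all 3, at -0.01, -0.03 and -0.04. In Era they were at 0.04, 0.06 and -0.06, so the Era+VK values lay within the Era range. Those of the disulfide enzymes lay on both sides of 0. For the small stress factors these medians were 0.23, 0.43 and 0.18 in Era+VK replicates 1, 2 and 3. All genes tested had medians of 0.03, 0.03 and 0.04.

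**Figure D4:**
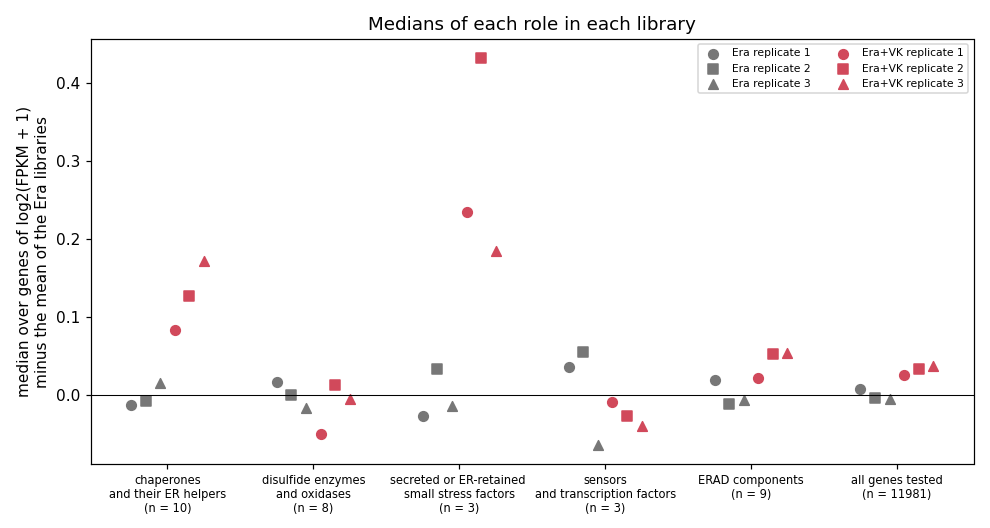
Median over the genes of each role of log2(FPKM + 1) minus the mean of the Era libraries, for each library (grey, Era; red, Era+VK; marker shape, replicate; the number of genes is below each role). The chaperones reach 0.08, 0.13 and 0.17 and the small stress factors 0.23, 0.43 and 0.18 in Era+VK, and the disulfide enzymes stay between -0.05 and 0.01.

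Summed over the 36 genes, transcripts of this machinery came to 1337, 1335 and 1335 FPKM in Era and 1440, 1508 and 1446 FPKM in Era+VK. They took 0.568% ± 0.0073 of the summed FPKM of a library in Era and 0.632% ± 0.0017 in Era+VK (SD, n = 3 per group). Most of the difference lay in CALR, which made up 28.1% of the sum in Era and 31.8% in Era+VK. Without CALR the sums were 966, 963 and 954 FPKM in Era and 978, 1025 and 993 FPKM in Era+VK, a ratio of the means of 1.04 in place of 1.10.

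The pair of HSPA5 and HSP90B1 had a ratio of 1.26 in Era and 1.37 in Era+VK, and the pair of HYOU1 and SIL1 one of 2.73 and 2.95. An exact two-sided permutation test gave p = 0.2 and 0.4 (n = 3 per group), or 0.267 and 0.4 adjusted over the 4 ratios. With 3 against 3 this test cannot go below 0.1, so none of the 4 ratios could pass at 0.05.

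The promoter elements were set against these differences. Of the 11 genes with an ERSE or ERSE-II, 10 were tested, with a median log2 fold change of 0.09. Among them, 5 were higher without overlap (CALR, CANX, CRELD2, HSPA5 and HYOU1) and 2 were lower (XBP1 and HERPUD1). The 21 tested genes whose windows held neither had a median of 0.04, with 8 higher and 1 lower without overlap, among them PDIA4, CRELD1 and MANF on the higher side. For ERSE alone, the element searched first, the 7 tested genes had a median of 0.04, against 0.05 for the 24 without it. Of these, 4 of the 7 and 9 of the 24 were higher without overlap, and 1 and 2 were lower. The 3 genes with an ERSE-II had a median of 0.15. Outside the set, the 18 tested genes with either element had a median of 0.05, with 3 higher and 3 lower without overlap, or 16.7% each. The 8994 genes with neither had a median of 0.03, with 16.3% higher and 6.94% lower without overlap. Of the genes of the set with either element, CALR alone passed the test.

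Other genes of the ER are given for comparison. Without overlap, 15.1% of all genes tested were higher and 7.04% lower. Of 35 tested genes for other folding and redox functions, 19 had a higher mean and the median was 0.01, with 5 higher and 7 lower without overlap. Of 29 further ERAD genes, 24 had a higher mean with a median of 0.05, and 6 were higher and 1 lower without overlap. After centring, 18 of these 29 had a higher mean, with medians of 0.0081 for them and -0.0093 for all genes tested. Before centring, the 18 genes of translocation and signal peptide removal had a median of 0.03. The 12 tested genes that activate ATF6 and XBP1 or act with IRE1 had one of 0.05. None of the genes in these 4 lists passed the adjusted threshold in limma. At an unadjusted p under 0.05 they held 5, 3, 0 and 1 genes that were higher and 4, 1, 2 and 2 that were lower, in the order given.

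A list of PERK branch and ATF4 genes differed from this pattern. Of 10 genes tested, 7 had a lower mean and 3 fell past the threshold (median -0.17), where 0.484% of all genes tested did, and 6 were lower without overlap, next to 7.04% of all genes tested. ATF4, the transcription factor whose synthesis PERK favours, was at 134.3, 138.6 and 145.7 FPKM in Era and 88.2, 98.8 and 98.3 FPKM in Era+VK (difference -0.55 on the log2 scale; limma adjusted p = 0.0128). The asparagine synthetase gene ASNS (-0.95, adjusted p = 0.0109 in limma) and CHAC1, which degrades glutathione (-1.19, adjusted p = 0.0263 in limma), fell as well. DDIT3, which encodes CHOP, was at 5.96, 6.90 and 6.62 FPKM in Era and 6.60, 7.57 and 6.44 FPKM in Era+VK (difference 0.07 on the log2 scale; limma adjusted p = 0.684). EIF2AK3, the PERK gene, differed by 0.14 on the log2 scale (limma adjusted p = 0.366). Thus the calls were ATF4 and genes that the paper names as ATF4 targets, while the PERK gene and DDIT3 had higher means. RNA levels hold no measure of PERK activity, and what lowered ATF4 RNA was not tested here. For protein, the paper reported by western blot that VK1 lowered ATF4 and the phosphorylated form of eIF2α in erastin-treated cells. Under ISRIB, used there against the effects of this phosphorylation, ATF4 protein did not differ significantly with VK1. The paper proposes that VK1 possibly acts on ATF4 through eIF2α. ATF4 targets were already known to be lower when this list was drawn up, so its count is a description.

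**Figure D5:**
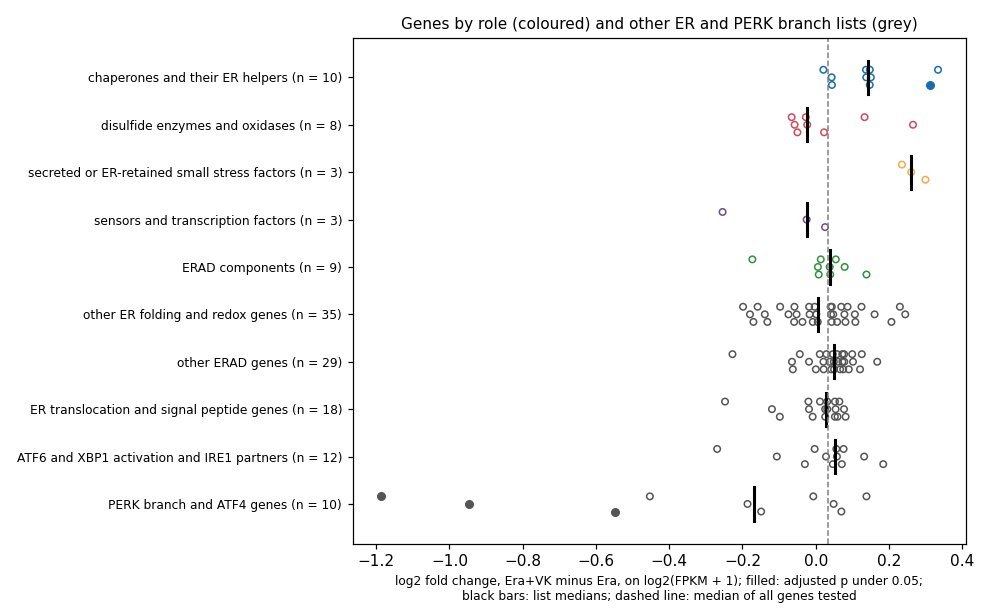
Log2 fold change, Era+VK minus Era on the log2(FPKM + 1) scale, of the tested genes by role (coloured) and of the other ER and PERK branch lists (grey). Points are genes, filled where the adjusted p in limma was under 0.05, black bars are list medians and the dashed line is the median of all genes tested. The 3 filled grey points are CHAC1, ASNS and ATF4, and the chaperones and small stress factors lie right of the dashed line except HSP90B1.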

How the data were processed

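RNA was extracted with TRIzol and sequenced as paired ends on an Illumina NovaSeq instrument. What the authors deposited is an FPKM value for each gene in every library. The submitters' processing notes name cutadapt, HISAT2 and StringTie 2.1.6, without their settings, and a mouse genome build, although the gene identifiers are human. The annotation and any filter are not given in the sources used here. The cell line label counts upwards from library to library, while the titles give ARPE-19 for every sample, which was followed here. An FPKM value is a share of the mapped fragments, so abundant genes that differ shift the others. The low values showed no steps of whole reads, so the depth is unknown and no counting error is given.

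From these values, Era+VK was compared with Era by limma 3.58.1 (R 4.3.3, moderated variances with a trend) after a log2 transform with a pseudocount of 1. The test took in 11981 genes whose mean reached 1 FPKM, used no replicate term, and was adjusted over all of these genes by Benjamini-Hochberg (threshold 0.05). Fold changes on this scale understate the change of low genes. Single values and ratios were compared with an exact permutation test in SciPy 1.17.1, which cannot go below p = 0.1 with 3 against 3. Positions are from GENCODE 29 on GRCh38, matched by identifier, and promoters are from RefSeq (GRCh38.p14). Promoters of DERL1, DERL3 and PDIA3 were not used here. ERSE-II, the UPRE and the ATF4 element were added to the search after ERSE.

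The named genes are all 36 of the set, and of the comparison lists those past the threshold together with ATF4, DDIT3 and EIF2AK3. The genes and lists were chosen with earlier results of these data known. The values of 1 marker gene are not reported here. In data simulated for Era+VK against Era over 11981 genes, limma recovered 90 of 100 genes changed by 0.5 and 98 of 100 changed by 1 on the log2 scale, with 9 false calls, and made 0 calls with nothing changed. The noise was normal, and the changed genes were taken only from those above a set level. Differences in the set ran from -0.25 to 0.33, so recovery at their sizes was not tested.

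The 15 alternatives were a pseudocount of 0.1, no filter, a filter of 1 FPKM on each single library, quantile normalization, centring of libraries on their median, rescaling without mitochondrially encoded genes, a replicate block, removal of the trend with GC content and length (known for 11893 genes), Era+VK replicate 1 alone, and each library left out in turn.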

Additional observations from a re-analysis of the deposited data

How the results depend on the processing

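The rise of CALR kept its direction under all 15 alternatives (log2 fold change 0.27 to 0.35) but not its call. In limma its adjusted p was 0.0347 with a pseudocount of 0.1, 0.0326 with a minimum of 1 FPKM in every library, 0.0155 after quantile normalization, 0.0189 without mitochondrially encoded genes and 0.0133 after GC and length correction. It was 0.231 without a filter, where 31325 genes were tested, 0.0558 after centring and 0.122 with Era+VK replicate 1 alone, and from 0.0374 (without Era+VK replicate 2) to 0.193 (without Era replicate 2) when 1 library was left out. PDIA4 joined CALR, for 2 genes of the set called, with a minimum of 1 FPKM in every library (adjusted p = 0.0494), after quantile normalization (0.045), without mitochondrially encoded genes (0.0474) and after GC and length correction (0.0421). No gene of the set was called without a filter, after centring or with Era+VK replicate 1 alone, and 0 to 1 when 1 library was left out. In limma 0 of the 33 were called as lower under every alternative.

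Deviations of same-numbered libraries of both groups had correlations of 0.07, 0.10 and 0.02. Era replicates 1 and 2 correlated best with the library of the same number, and Era replicate 3 with Era+VK replicate 1 (0.04). Such small values cannot decide whether the numbers mark pairs. The labels do not state pairs, and the main test took none. With a replicate block, 5 genes were called higher and 37 lower, 0 of them in the set, and the adjusted p of CALR in limma was 0.117.

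Over all genes, 16 were called higher and 58 lower. These counts were 0 and 1 without a filter, 33 and 89 with a minimum of 1 FPKM in every library, 46 and 96 after GC and length correction, and 6 and 29 with Era+VK replicate 1 alone. Lower calls were 96 after quantile normalization and 119 after centring, where 16 and 11 were higher. Without 1 library they ranged from 0 to 30 higher and 2 to 47 lower, with 0 and 2 without Era replicate 1 or 2, 1 and 4 without Era replicate 3, 30 and 40 without Era+VK replicate 1, and 8 and 34 without Era+VK replicate 3.

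Centring took the median of the set to 0.0016 and that of all genes tested to -0.0093. After it 17 of 33 genes had a higher mean, and 10 were higher and 6 lower without overlap. Groups were lower without overlap for 9 genes with Era+VK replicate 1 alone (27.3%, next to 25.5% of all genes tested). They were so for 3 to 5 genes without 1 library. Shares of all genes after centring or without 1 library are not given, so those counts cannot be set against all genes. The chaperone median ranged from 0.08 (Era+VK replicate 1 alone) to 0.15 over all alternatives and that of the small stress factors from 0.22 to 0.33. For 22 of the 33 genes no alternative changed the sign, and the other 11 lay near 0. The sign changed after quantile normalization for P4HB (0.0136), ATF6 (-0.0131), SEL1L (-0.0086), EDEM2 (-0.0098) and DERL1 (-0.0231). It changed after centring for HSP90B1 (-0.021), PDIA6 (-0.0192), ATF6 (-0.0164), SEL1L (-0.0282), EDEM1 (-0.0039), EDEM2 (-0.036), DERL1 (-0.0338) and DERL2 (-0.0024), and after GC and length correction for SEL1L (-0.0022) and DERL1 (-0.0006). With Era+VK replicate 1 alone it changed for HSP90B1 (-0.0391), SIL1 (-0.009), PDIA6 (-0.0471), EDEM2 (-0.0167), DERL1 (-0.062) and DERL2 (-0.0333). Without 1 library, ranges spanned 0 for ATF6B (-0.0704 to 0.0028), ATF6 (-0.0062 to 0.0605), DERL1 (-0.0222 to 0.0432), EDEM1 (-0.0001 to 0.0817), EDEM2 (-0.0307 to 0.0313), HSP90B1 (-0.0052 to 0.0509), SIL1 (-0.0278 to 0.0896), PDIA6 (-0.0108 to 0.0576) and SEL1L (-0.0124 to 0.0495). Apart from settings that test fewer libraries or more genes, the cause was not tested.

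The limits are 3 libraries per group, an unknown depth, no untreated cells and erythroid transcripts in 2 of the 3 Era+VK libraries. Genes that share a locus or near copies (PDIA3, CRELD2, SIL1, DNAJB9, SYVN1, DERL2, ERO1B and DERL3) are uncertain where counting did not separate strands or copies, which the sources used here do not give.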

Other observations

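The GO terms that came with the files give a further grouping of the 36 genes, by compartment and activity. Of the 22 tested genes annotated to the lumen, 11 were higher and 1 was lower without overlap, with a median log2 fold change of 0.11, where 15.1% of all genes tested were higher and 7.04% lower without overlap, next to a median of 0.05 over the 173 tested genes of that term. Of 18 annotated to the ER membrane, 4 were higher and 2 lower without overlap, with a median of 0.02. The 9 genes annotated to calcium ion binding, which include CALR, CANX and HSPA5, had a median of 0.14 with 6 higher and 0 lower without overlap, against a median of 0.04 over 276 tested genes. The 8 genes annotated to protein disulfide isomerase activity, which take in CRELD1 and CRELD2 but not DNAJC10 or ERO1A, had a median of 0.08 with 4 higher and 0 lower without overlap, against a median of -0.02 over 15 tested genes. The 9 tested genes annotated to the unfolded protein response of the ER had a median of 0.01, with 1 higher and 2 lower without overlap. The medians were 0.04 for 13 tested genes of the ubiquitin-dependent ERAD pathway (4 higher and 2 lower without overlap) and 0.02 for 15 tested genes of the response to ER stress (5 higher and 3 lower). These terms share genes, were read after the values were known, and were not tested.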
